A study of Mus musculus with 12 samples.

Results

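Acute phase proteins are 6 genes here, Lcn2, Lbp, Hp, Saa3, Serpina3n and Ptx3, taken as the rows of the count table whose names equal those symbols, 6 of 39756 genes. Their RNA was measured by poly(A) RNA sequencing in the hemisphere of 12 male C57BL/6J mice, 4 in each group. Sham mice had surgery without occlusion. Vehicle mice had tMCAO, a transient occlusion of the middle cerebral artery by a filament that is later removed, and received saline. LJP mice had the same occlusion and received LJP, a sulfated polysaccharide from the brown alga Laminaria japonica, by gavage before and after surgery. The study compared several doses and took the middle one, LJP-M, into its later experiments, but the sources used here do not state a dose or a time of tissue collection for the sequenced mice themselves.

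Acute phase proteins are secreted when tissue is injured or infected, and the liver is their best known source. Interleukin-6 family cytokines, acting through STAT3, and interleukin-1 and tumor necrosis factor, acting through NF-kappa B, switch on their genes, with C/EBP factors acting at many of the promoters. Several of them are also made by cells outside the liver, and in injured brain Lcn2 and Serpina3n are widely used as genes of reactive astrocytes. The question here was how the RNA of these proteins differed in the brain after occlusion, and how it differed between LJP and saline.

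Members divide by what the proteins do. Lcn2 (lipocalin 2, Entrez Gene 16819, chromosome 2 from 32384637 to 32387739 of GRCm38, minus strand) binds bacterial siderophores and so withholds iron. Hp (haptoglobin, Entrez Gene 15439, chromosome 8 from 109575128 to 109579172, minus strand) binds free hemoglobin. Lbp (lipopolysaccharide binding protein, Entrez Gene 16803, chromosome 2 from 158306493 to 158332852, plus strand) hands lipopolysaccharide to Cd14 and Tlr4. Ptx3 (pentraxin 3, Entrez Gene 19288, chromosome 3 from 66219887 to 66225806, plus strand) is a long pentraxin that binds microbes and C1q. Saa3 (serum amyloid A 3, Entrez Gene 20210, chromosome 7 from 46711998 to 46719615, minus strand) is the serum amyloid A form made mainly outside the liver. Serpina3n (Entrez Gene 20716, chromosome 12 from 104406646 to 104414334, plus strand) is a serine protease inhibitor.

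The RefSeq promoter table (GRCm38.p6) matched 4 of the 6 genes, with no entry for Hp and Lbp. Sequence before the start is shown to place these genes beside the factors that are known to act on acute phase promoters. Each runs 5' to 3' on the gene's strand, and capitals mark a match to the C/EBP letters TTGCNNAA on either strand. Ptx3 covers chr3:66219637-66219886 (plus strand), Saa3 covers chr7:46715701-46715926 (minus strand) and Serpina3n covers chr12:104406458-104406645 (plus strand). The start is that of the RefSeq table, which for Saa3 is base 46715676. The span of Saa3 in the count table begins further 5', so the Saa3 stretch lies inside that span, and its last 24 bases before the start, which are in GENCODE vM21 exons, were left off. For Serpina3n the bases next to the start that fall in the span of the count table were left off. For Lcn2, 197 of the 250 bases before the start lie in exons of GENCODE transcripts of the gene, all 8 bases of the match among them, and only the 28 bases around the match are shown, chr2:32387938-32387965 (minus strand).
Lcn2: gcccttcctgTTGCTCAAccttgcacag
Saa3: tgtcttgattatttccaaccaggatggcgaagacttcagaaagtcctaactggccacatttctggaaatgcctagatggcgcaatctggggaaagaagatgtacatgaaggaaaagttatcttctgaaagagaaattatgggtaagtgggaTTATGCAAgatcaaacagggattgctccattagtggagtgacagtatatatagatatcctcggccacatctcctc
Ptx3: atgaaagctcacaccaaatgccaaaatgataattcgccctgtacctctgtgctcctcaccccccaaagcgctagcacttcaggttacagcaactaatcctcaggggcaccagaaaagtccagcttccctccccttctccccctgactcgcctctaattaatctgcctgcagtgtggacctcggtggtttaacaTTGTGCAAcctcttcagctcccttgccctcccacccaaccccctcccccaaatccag
Serpina3n: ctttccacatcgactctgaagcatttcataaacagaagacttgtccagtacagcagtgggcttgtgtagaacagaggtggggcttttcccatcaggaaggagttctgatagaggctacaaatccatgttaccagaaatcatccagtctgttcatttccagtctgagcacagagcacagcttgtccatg

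The C/EBP letters stood in the 250 bases before the RefSeq start of 3 of the 4 genes, from 216 to 209 bases before that of Lcn2, from 99 to 92 before that of Saa3 and from 57 to 50 before that of Ptx3. They stood in the same window of 9.56% of 32851 promoters. The STAT letters TTCNNNGAA were found in 0 of the 4 windows against 7.02% of all promoters, the AP-1 letters TGANTCA in 0 of 4 against 6.75%, and the NF-kappa B consensus in 0 of 4 against 3.90%, each searched on both strands. The motifs searched do not contain one another. A match is a description of letters, and a window without one says only that these letters are not in it.

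Total counts per mouse were between 17960353 and 22216315, and 17558 genes had enough counts to be tested. Levels are given as CPM, counts scaled to the library size after TMM normalization, and with SD over n = 4 mice. A count of 0 allows up to 3 counts, which is 0.129 to 0.173 CPM, and covers counting error only. The tissue carried brain markers in every mouse, with summed astrocyte markers between 3511 and 5531 CPM and summed neuron markers between 2151 and 4749 CPM, lowest in Vehicle mice 2 and 1. Hepatocyte markers summed to between 0.519 and 1.90 CPM in all 12 mice, and albumin (Alb) had at most 3 counts in any mouse. Markers of lung, a tissue that should be absent, summed to 8.34 to 13.2 CPM in the Sham and Vehicle mice and to 0.358 to 0.668 CPM in the LJP mice, so the LJP libraries stood apart in these genes.

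After occlusion all 6 genes rose in the Vehicle group, and in none of them did a Vehicle mouse overlap with a Sham mouse. The adjusted p-value was below 0.05 in 6 of 6 genes, against 22.7% of all tested genes that were called higher in this comparison, and 20.7% of all tested genes were higher with no overlap. The median log2 fold change of the 6 was 5.27, beside a median of about 0 over all genes tested (3.54e-05). Saa3 had enough counts to be tested only with the Vehicle mice, so its part in the counts and the median was favoured in advance. In bulk tissue, a gain of cells that make a transcript and more transcript per cell cannot be told apart.

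Lcn2 was at 0.519, 0.708, 0.657 and 0.259 CPM in Sham mice 1 to 4. In Vehicle mice 1 to 4 it was at 166, 106, 16.5 and 16.6 CPM, so the first pair lay far above the second, and all 4 lay above every Sham mouse. Its log2 fold change was 7.15 (standard error, SE, of 0.91, edgeR adjusted p = 0.000228).

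Hp, the hemoglobin binder, was at 0.691, 0.327, 0.876 and 0.311 CPM in the Sham mice. It was at 26.3, 15.7, 1.02 and 2.69 CPM in the Vehicle mice, and Vehicle mouse 3 lay only just above the highest Sham mouse. The log2 fold change was 4.37 (SE 0.90, edgeR adjusted p = 0.00304).

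Lbp had a higher resting level, 2.42, 6.64, 4.27 and 8.75 CPM in the Sham mice. In the Vehicle mice it was at 22.2, 67.6, 10.4 and 17.6 CPM, with mouse 2 and not mouse 1 the highest. It rose by the smallest amount of the 6, a log2 fold change of 2.41 (SE 0.57, edgeR adjusted p = 0.00606).

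Ptx3, the other soluble pattern recognition molecule, was at 0.403, 0.327, 0.493 and 0.725 CPM in the Sham mice and at 28.7, 17.2, 3.55 and 6.46 CPM in the Vehicle mice. Mice 1 and 2 were again the high pair. The log2 fold change was 4.82 (SE 0.66, edgeR adjusted p = 0.000336).

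Saa3 was close to the detection floor in the Sham mice, with 0, 4, 2 and 1 counts, or 0, 0.218, 0.109 and 0.0518 CPM. In the Vehicle mice it was at 53.5, 12.4, 4.78 and 2.64 CPM, all above the Sham range. The fitted log2 fold change was 7.50 (SE 1.16, edgeR adjusted p = 0.000689), and with only 7 Sham counts in all, the ratio of the summed counts, scaled to library size, was 204 with a 95% counting interval from 98.8 to 508.

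Serpina3n was the most abundant of the 6, and in the Sham and Vehicle groups it had the lowest coefficient of variation. It was at 11.004, 7.84, 9.85 and 10.3 CPM in the Sham mice and at 772, 667, 338 and 263 CPM in the Vehicle mice, a mean of 510 ± 248 CPM (SD, n = 4) against 9.74 ± 1.35 CPM (SD, n = 4). The log2 fold change was 5.71 (SE 0.40, edgeR adjusted p = 1.54e-05). Its coefficient of variation over the Vehicle mice was 48.6%, and those of the other 5 genes ran from 81.9% for Ptx3 to 130% for Saa3.

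**Figure D1:**
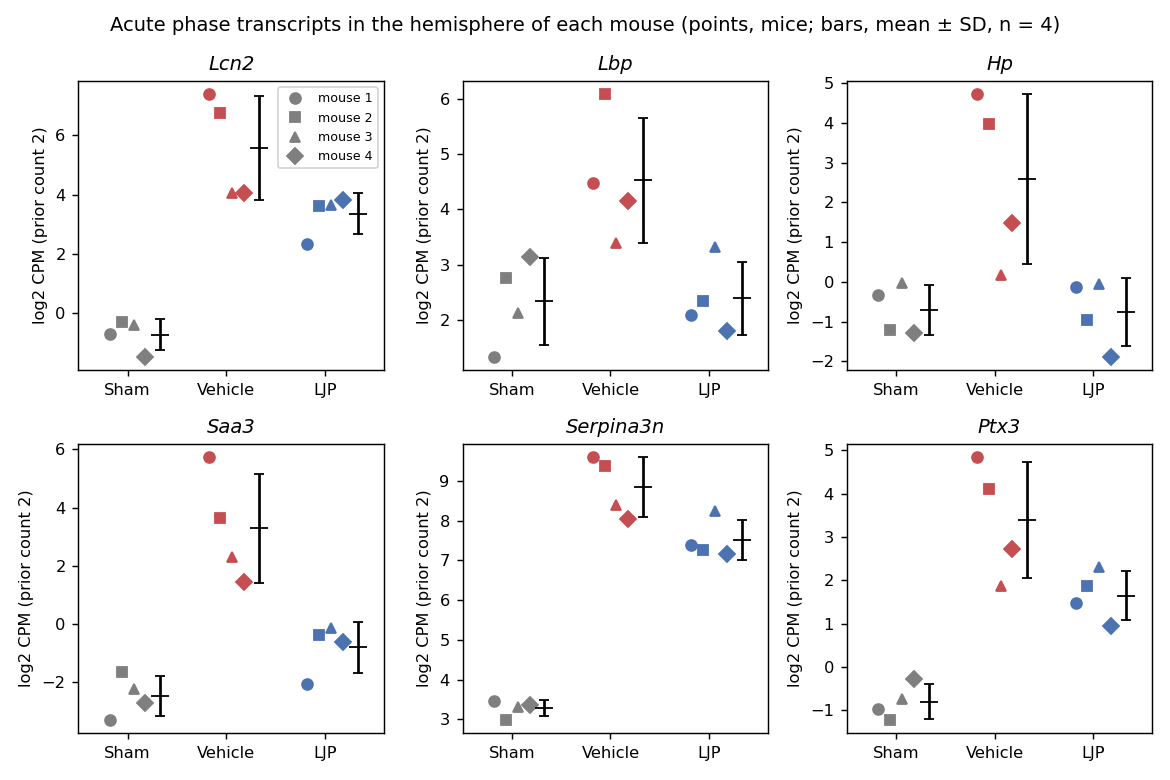
Log2 CPM (prior count 2) of each acute phase gene in every mouse, by group; points are mice, with 1 marker shape per mouse number, and bars are the mean ± SD (n = 4). All 4 Vehicle mice lay above all 4 Sham mice in each of the 6 panels, and mice 1 and 2 were the highest Vehicle mice in each.

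Lbp and Serpina3n were above the cutoff of the filter on low counts (0.532 CPM) in all 12 mice. The filter needed 4 mice above the cutoff in all. Saa3 reached this only with the Vehicle group, since 0 Sham and 3 LJP mice were above it, and Lcn2 and Ptx3 reached it only with the groups that had occlusion. These 3 genes were thus tested because of their level after occlusion. Hp was above the cutoff in 2 Sham, 4 Vehicle and 2 LJP mice. The rise depended on single mice in its size. Without Vehicle mouse 1 the log2 fold changes were 6.43 for Lcn2, 3.56 for Hp, 6.03 for Saa3 and 4.201 for Ptx3, and without Vehicle mouse 2 that of Lbp was 1.59. Without Vehicle mice 1 and 2, a choice made after seeing the data, 6 of 6 genes were still called higher (15.7% of all tested genes were), with log2 fold changes of 4.93 for Lcn2, 1.33 for Lbp, 1.74 for Hp, 5.18 for Saa3, 4.94 for Serpina3n and 3.33 for Ptx3 (largest edgeR adjusted p = 0.0268).

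Compared per length of transcript, Serpina3n ranked first in every group. In the Sham group it had a mean of 4.53 CPM per kb, followed without overlap by Lbp at 2.19, and without overlap by Lcn2 at 0.628. Hp (0.410), Ptx3 (0.253) and Saa3 (0.121 CPM per kb) came next, each overlapping with its neighbour. In the Vehicle group the order was Serpina3n (237), Lcn2 (89.5), Saa3 (23.4), Lbp (11.7), Hp (8.5) and Ptx3 (7.28 CPM per kb), and every neighbour in it overlapped. The Vehicle order after Lcn2 rested on single mice. Without Vehicle mouse 1 the means were 12.6 for Lbp, 8.46 for Saa3, 4.81 for Hp and 4.72 CPM per kb for Ptx3, so that Saa3 came after Lbp, and Lcn2 was at 54.5 CPM per kb. Without Vehicle mouse 2 Lbp came last, at 6.63 CPM per kb.

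The next comparison asked how LJP mice differed from Vehicle mice. All 6 genes had lower means in the LJP group, and none of the 6 passed an edgeR adjusted p of 0.05, since each had an adjusted p of 0.0678. All 6 had an unadjusted p below 0.05, and all 6 passed in DESeq2, with adjusted p-values from 0.000417 for Saa3 to 0.00577 for Lcn2. Beside these counts, edgeR called 0.0228% of all tested genes lower at the adjusted threshold and 17.4% lower at an unadjusted p below 0.05, and DESeq2 called 9.36% lower. Of the 4 genes behind that 0.0228%, 3 were the lung markers Scgb1a1, Sftpa1 and Sftpb. How far this difference between libraries bears on the 6 genes was not tested. At the study's own cutoffs (log2 fold change beyond 0.58 in size, unadjusted p under 0.01), 6 of 6 genes and 5.89% of all tested genes were lower. The median log2 fold change was -2.60 over the 6 genes and about 0 over all genes (-0.00174). Saa3 had enough counts to be tested only with the Vehicle mice. Its part in the edgeR counts and in the median was thus favoured in advance.

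Saa3 had the largest difference, though it passed the filter on low counts only with the Vehicle mice. It was at 0.136, 0.664, 0.815 and 0.557 CPM in LJP mice 1 to 4. All 4 lay below the lowest Vehicle mouse. The LJP mean of 0.543 ± 0.291 CPM (SD, n = 4) was 33.8-fold lower than the Vehicle mean of 18.3 ± 23.8 CPM (SD, n = 4), with a log2 fold change of -5.09 (SE 0.93; two-sided exact permutation p = 0.0286, the smallest possible with 4 mice against 4).

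Hp was at 0.817, 0.409, 0.869 and 0.167 CPM in the LJP mice, with mice 1 to 3 inside the range of the Sham mice and mouse 4 below it. No LJP mouse reached the lowest Vehicle mouse at 1.02 CPM. The log2 fold change was -4.31 (SE 0.89; two-sided exact permutation p = 0.0286).

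Lcn2 was at 4.99, 12.3, 12.5 and 13.9 CPM in the LJP mice. All 4 were below the lower Vehicle pair at 16.5 and 16.6 CPM, though mouse 4 was not far from it. The log2 fold change was -2.81 (SE 0.66; two-sided exact permutation p = 0.0286).

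Lbp was at 4.17, 5.004, 9.89 and 3.40 CPM in the LJP mice, with mouse 3 just below the lowest Vehicle mouse at 10.4 CPM. The log2 fold change was -2.40 (SE 0.57; two-sided exact permutation p = 0.0286). These 4 genes, Saa3, Hp, Lcn2 and Lbp, were lower with no overlap, as were 5.90% of all tested genes.

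Serpina3n and Ptx3 did overlap between the groups. Serpina3n was at 166, 152, 305 and 143 CPM in the LJP mice, and LJP mouse 3 lay above Vehicle mouse 4. Its log2 fold change of -1.41 (SE 0.33; two-sided exact permutation p = 0.0571) was the smallest of the 6. Ptx3 was at 2.68, 3.52, 4.84 and 1.84 CPM, again with mouse 3 inside the Vehicle range, and its log2 fold change was -2.12 (SE 0.54; two-sided exact permutation p = 0.0571).

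**Figure D2:**
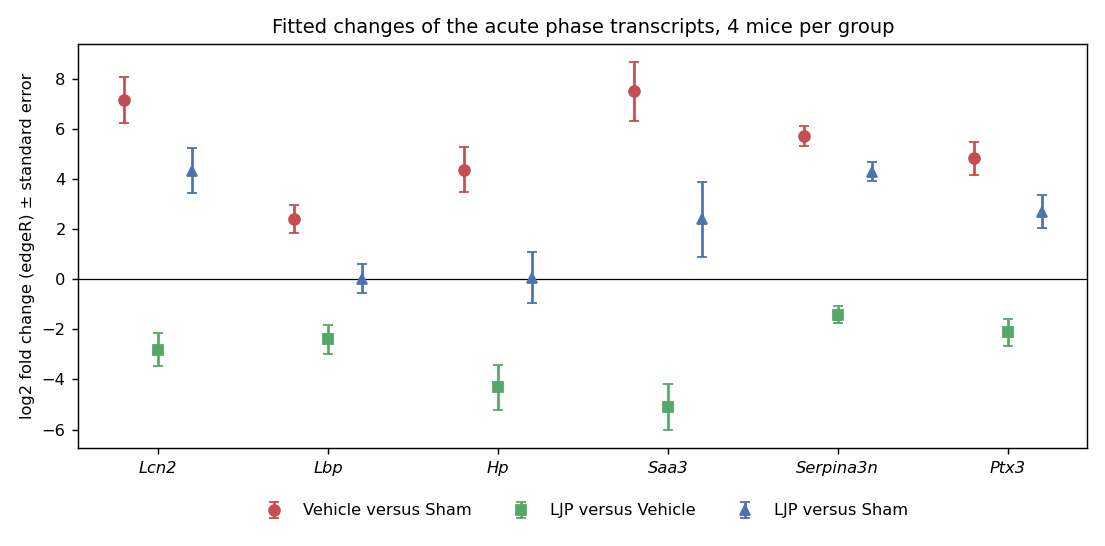
Fitted log2 fold change of each gene in the 3 comparisons, with the standard error as bars (edgeR, 4 mice per group); the line marks no difference. Vehicle versus Sham lay above 0 for all 6 genes and LJP versus Vehicle below 0 for all 6, while LJP versus Sham was at 0.02 for Lbp and 0.06 for Hp.

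The size of these differences depended on Vehicle mice 1 and 2. Without Vehicle mouse 1 the log2 fold change of Saa3 was -3.62, and without Vehicle mouse 2 that of Lbp was -1.58. With both left out, no gene of the 6 passed (0.0443% of all tested genes were called lower) and the log2 fold changes were -0.61 for Lcn2, -1.32 for Lbp, -1.69 for Hp, -2.78 for Saa3, -0.65 for Serpina3n and -0.64 for Ptx3 (edgeR adjusted p from 0.0912 to 0.434). Leaving out Vehicle mouse 3 or Vehicle mouse 4 instead, the lower pair, brought the count of called genes to 6 each time, while the share of all tested genes called lower went from 0.0228% to 13.1% without mouse 3 and to 8.38% without mouse 4.

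Whether the 6 genes differed by unequal amounts was tested as the log2 ratio of each to Serpina3n within a mouse, from CPM plus 0.5. Saa3 was 2.02 lower relative to Serpina3n in LJP than in Vehicle mice (difference of -2.02; two-sided exact permutation p = 0.0286, or 0.143 after adjustment over the 5 ratios). The differences of the other ratios were -1.39 for Hp, -0.81 for Lcn2, -0.71 for Lbp and -0.29 for Ptx3, with exact permutation adjusted p-values from 0.286 to 0.457. The pseudocount sets much of the size where levels are low: without it, an alternative added after seeing the data, the differences were -3.07 for Saa3, -2.29 for Hp, -0.86 for Lcn2, -0.81 for Lbp and -0.43 for Ptx3, with exact permutation adjusted p-values from 0.143 to 0.314. With the pseudocount, no Vehicle mouse overlapped with an LJP mouse in the Saa3 ratio (-6.39 to -3.84 against -8.04 to -7.04). With 4 mice against 4, a single ratio cannot reach an adjusted p below 0.143 over 5 ratios, so a failure to pass does not show that the genes differed by equal amounts.

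LJP mice were then set against Sham mice. Serpina3n rose by a log2 fold change of 4.30 (SE 0.38, edgeR adjusted p = 0.000161), Lcn2 by 4.34 (SE 0.90, edgeR adjusted p = 0.0162) and Ptx3 by 2.70 (SE 0.66, edgeR adjusted p = 0.0358). In these 3 of 6 genes no LJP mouse overlapped with a Sham mouse, where 3.85% of all tested genes were called higher and 12.8% were higher with no overlap. The Lcn2 and Ptx3 calls were lost when any 1 Sham mouse was left out, which brought the count to 1, Serpina3n, and the Ptx3 call was lost without LJP mouse 1, 2 or 3 as well. It was also lost when the replicate number was added to the fit as a block.

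Lbp and Hp had means close to those of the Sham group and did not pass the test. Lbp was at 5.62 ± 2.92 CPM (SD, n = 4) in the LJP mice and 5.52 ± 2.76 CPM (SD, n = 4) in the Sham mice, a log2 fold change of 0.02 (SE 0.57, edgeR adjusted p = 0.992). Hp was at 0.565 ± 0.336 CPM (SD, n = 4) and 0.551 ± 0.279 CPM (SD, n = 4), a log2 fold change of 0.06 (SE 1.02, edgeR adjusted p = 0.984). From the summed counts, 95% counting intervals of the LJP to Sham ratio ran from 0.863 to 1.14 for Lbp and from 0.675 to 1.66 for Hp, which leave out the spread between mice. Summed choroid plexus markers, 4 of 4 detected in each group, were at 20.5, 659, 410.5 and 864 CPM in Sham mice 1 to 4 and at 12.9, 14.7, 364 and 11.4 CPM in LJP mice 1 to 4, and Lbp had the same order of mice within each of these groups. In Vehicle mice 1 to 4 the sums were 11.1, 16.6, 500.5 and 458 CPM, where Lbp was not in that order, and the part of this tissue in the level of Lbp was not tested.

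Saa3 stood between these. Its LJP levels were above the highest Sham mouse in mice 2, 3 and 4 and inside the Sham range in mouse 1, and the log2 fold change of 2.41 (SE 1.497, edgeR adjusted p = 0.427) did not pass. The count ratio was 5.51 with a 95% counting interval from 2.45 to 14.5. The comparisons share the same Vehicle, Sham or LJP mice in pairs, so the 3 fold changes of a gene are not independent of each other.

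In the LJP group the levels per length kept Serpina3n (89.1 CPM per kb) and Lcn2 (12.8) in the first places, with no overlap between them or between Lcn2 and Lbp (2.22). Ptx3 (1.67), Saa3 (0.693) and Hp (0.420 CPM per kb) followed, and neighbours from Lbp onward overlapped.

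The 4 Vehicle mice differed from each other in the same order for several genes. Vehicle mouse 1 was highest in 5 of the 6 genes, and mouse 2 was highest in Lbp. Summed neutrophil markers were at 167, 40.8, 0.860 and 5.81 CPM in Vehicle mice 1 to 4, against 0.327 to 0.634 CPM in the Sham mice and 0.358 to 1.23 CPM in the LJP mice. Of the 11 neutrophil markers, 10 had counts in the Vehicle group, Elane was at 0 in all 3 groups, and Elane, Ly6g, Retnlg and Cxcr2 were at 0 in the Sham group. All 6 genes were highest in Vehicle mice 1 and 2, among them Lcn2 and Hp, which neutrophils carry in their granules, and also Serpina3n, Ptx3, Saa3 and Lbp.

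Vehicle mice 3 and 4, which had the lowest neutrophil sums of the group, had 16.5 and 16.6 CPM of Lcn2 and 338 and 263 CPM of Serpina3n. The LJP mice had 4.99 to 13.9 CPM of Lcn2 with a neutrophil sum of no more than 1.23 CPM. The part of neutrophils in the levels of these genes was not tested. Erythroid markers were also highest in Vehicle mice 1 and 2, at 89.0 and 51.1 CPM, with 9.79 and 14.4 CPM in mice 3 and 4 and no more than 8.91 CPM elsewhere. All 5 of the erythroid markers had counts in the LJP mice. So had 10 of the 11 neutrophil markers, but with only 1 count (Camp, Ltf and Ly6g) to 16 counts (S100a9) each, summed over the 4 mice.

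Lbp was highest in Vehicle mouse 2, and so were markers of other cells. Fibroblast markers summed to 166, 1011, 174 and 240 CPM in the Vehicle mice, and endothelial markers to 519, 1079, 250 and 284 CPM, so that mouse 2 was highest in both. Mouse 1, with the second highest level of Lbp, had the lowest fibroblast sum of the 4 and the second highest endothelial sum. In the Sham mice the sums were 103 to 111 CPM and 177 to 191 CPM, and in the LJP mice 103 to 168 CPM and 174 to 224 CPM, with all 5 markers of each list detected in all groups. Macrophage markers, 6 of 6 detected, were at 27.0, 107, 19.8 and 24.97 CPM in the Vehicle mice, 7.97 to 10.3 CPM in the Sham mice and 11.7 to 20.6 CPM in the LJP mice. The part of these cells in the levels of the 6 genes was not tested.

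Microglia markers did not follow this order. They summed to 380, 698, 741 and 780 CPM in the Vehicle mice, lowest in mouse 1, to 461 to 796 CPM in the LJP mice and to 265 to 271 CPM in the Sham mice. Astrocyte markers summed to 3511 CPM in Vehicle mouse 1, the lowest of all 12 mice, and to 4864 to 5504 CPM in the other Vehicle mice, but 3 of the 7 markers passed the test against Sham and did so in opposite directions. Gfap, the intermediate filament of reactive astrocytes, and Aldh1l1 rose in the Vehicle group, by 3.87 and 1.12 on the log2 scale, and the glutamate transporter Slc1a2 fell by 0.76 (edgeR adjusted p-values of 1.54e-05, 8.96e-05 and 0.0121). Slc1a2 was at 1253, 1150.5, 2293 and 2353 CPM in Vehicle mice 1 to 4 and at 2727 to 3201 CPM in the Sham mice, so it was low in mouse 2 as well, whose astrocyte sum was not.

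Neuron markers were lowest where the 6 genes were highest. They summed to 2786, 2151, 3633 and 3467 CPM in Vehicle mice 1 to 4, to 4177 to 4749 CPM in the Sham mice and to 3627 to 4278 CPM in the LJP mice, with 4 of 4 markers detected in each group. Vehicle mice 1 and 2 thus had the lowest neuron sums of all 12 mice, and 3 of the 4 markers fell in the Vehicle group against Sham. Their part in the levels of the 6 genes was not tested.

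**Figure D3:**
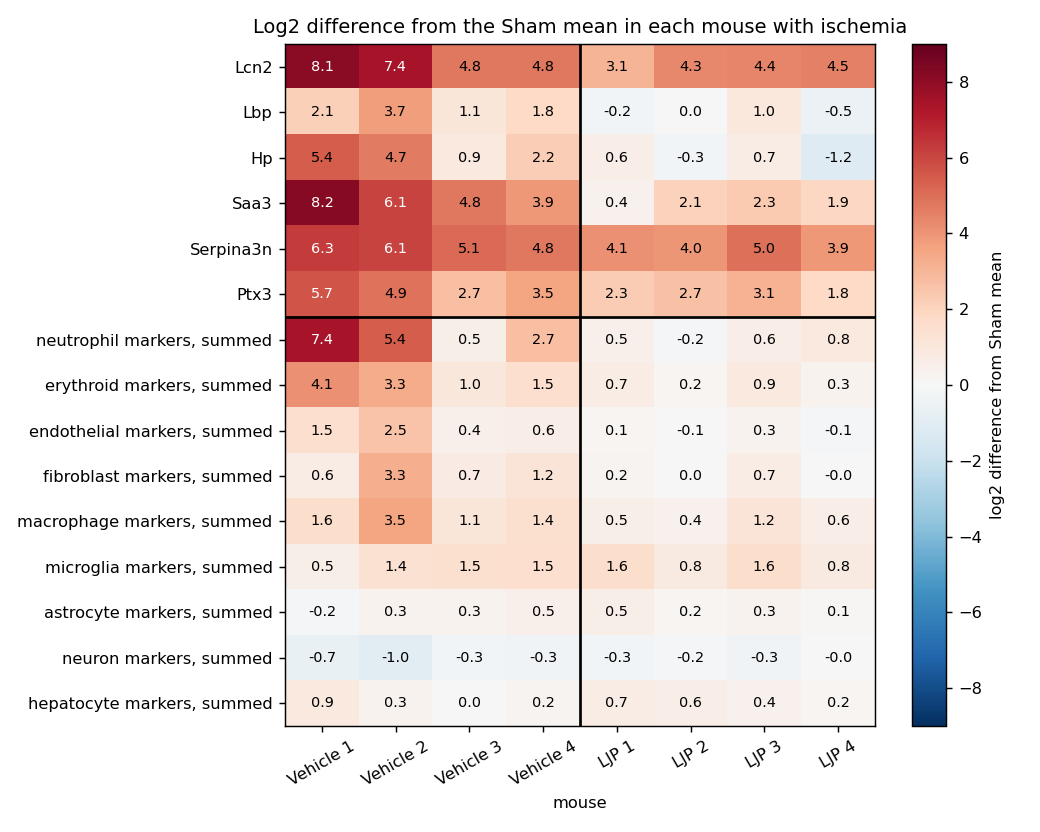
Log2 difference from the Sham mean in each Vehicle and LJP mouse, for the 6 genes (upper rows, log2 CPM with prior count 2) and for summed markers of 9 cell types (lower rows, log2 of CPM plus 0.5); red is higher, blue is lower, and the number is printed in each cell. Lcn2, Saa3, Serpina3n and Ptx3 were above the Sham mean in all 8 mice, as were the erythroid, macrophage and microglia sums. Neutrophil and erythroid markers were highest in Vehicle mice 1 and 2, where neuron markers were lowest, and hepatocyte markers stayed within 0.89 of the Sham mean.

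For each gene the 3 tested genes with the nearest profile were found, by the root mean square difference of their log2 changes from Sham over the 12 mice. For Serpina3n they were Bcl3, an atypical I kappa B protein (0.43), Msr1, a macrophage scavenger receptor (0.45), and Lilr4b (0.56). Lcn2 lay nearest to Serpina3n (0.84), then Lilr4b (0.86) and Msr1 (0.91). Ptx3 lay nearest to Cebpd, a C/EBP factor (0.38), S100a11 (0.46) and Socs3, the feedback inhibitor of STAT3 signaling (0.49).

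Lbp lay nearest to Nid2 (0.36) and Nid1 (0.44), basement membrane proteins, and to Fbn1 (0.44), a fibrillin of the matrix. Hp lay nearest to Mmp9, a protease that neutrophils release (0.61), Il11 (0.62) and Soat2 (0.64). Saa3 had the loosest neighbours, Slc10a6 (0.93), the neutrophil attractant Cxcl1 (0.98) and the heme-degrading enzyme Hmox1 (1.02). Library and mouse are shared by every point of a profile, and the likeness carries no p-value. Over only the 8 mice with occlusion, 16 of these 18 neighbours were the same.

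Other acute phase genes were described from a list of 34. Of these, 30 had a count and 14 had enough to be tested, and 14 of 14 rose in the Vehicle mice (median log2 fold change 2.56), where 22.7% of all tested genes rose. Itih4 and Steap4, 2 of these 14, passed the filter only with the Vehicle mice, so their rise was set by it, and 12 did not need them. The smallest p-values belonged to C4b, a complement component (3.00), A2m, a protease inhibitor (4.43), Cd14, the lipopolysaccharide receptor that Lbp loads (3.99), and Mt1, a metal binding protein (2.21), with edgeR adjusted p-values of 5.65e-07, 0.000227, 0.000237 and 0.000245.

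Some genes of that list stayed near the floor in every mouse. Crp and Apcs, the short pentraxins, had 0 counts in all 12 mice. Saa1 had at most 4 counts and Saa2, its neighbour, at most 7 in any mouse, whereas Saa3 had up to 1180. Orm1, Orm2 and Orm3, which encode orosomucoids, had at most 7 counts in any mouse. Reads of Saa3 could be shared with Saa1 and Saa2 if counting split reads between copies, and their counts here were far below its own in the Vehicle group.

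In LJP against Vehicle mice, 0 of the 14 genes passed the adjusted threshold, 10 had an unadjusted p below 0.05, all of those with lower means in the LJP group, and the median log2 fold change was -1.14. DESeq2 called 8 of them. Of all tested genes, 17.4% were lower at an unadjusted p below 0.05 and 9.36% by DESeq2. The smallest p-values belonged to C3, the central complement protein (-2.49), Itih4, an inter-alpha-trypsin inhibitor chain (-4.00), Mt2 (-1.54) and Cd14 (-1.73) (edgeR adjusted p = 0.0678 for all 4). Itih4 and Steap4 passed the filter only with the Vehicle mice, so their lower LJP levels were favoured in advance. Itih4 was at 2.17, 20.6, 1.24 and 3.88 CPM in Vehicle mice 1 to 4, with mouse 2 far above the others. In LJP against Sham mice, 5 of 14 rose, against 3.85% of all tested genes, and the median was 1.16. That count was 9 in DESeq2 and moved with single mice, to 3 without Sham mouse 1, 2 or 3 or LJP mouse 3, to 8 without Vehicle mouse 3 and to 9 without Vehicle mouse 2.

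Of 7 negative acute phase genes, whose liver output drops in the acute phase, 3 could be tested. Trf, transferrin, rose in the Vehicle group by a log2 fold change of 1.68 (SE 0.22, edgeR adjusted p = 0.000257). Rbp4, the retinol carrier, fell by 0.50 on the log2 scale (SE 0.14, edgeR adjusted p = 0.0141). Ttr, transthyretin, also a choroid plexus gene, was between 13.4 and 805 CPM among the Sham mice alone, and its log2 fold change of -0.99 (SE 1.54, edgeR adjusted p = 0.631) did not pass.

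Serpina3n lies in a cluster of near copies on chromosome 12, so reads could be split among them. Of 10 neighbours, 7 had a count and 2 were tested. Both passed the filter on low counts only with the 4 Vehicle mice, since 0 Sham mice and 2 LJP mice (Serpina3m) or 1 (Serpina3g) were above its cutoff, so a higher level in the Vehicle group was set by the filter and their count supports nothing. Serpina3m had 0 counts in all 4 Sham mice and 214, 121, 18 and 21 counts in the Vehicle mice. The mean of the Vehicle mice was at least 24.6-fold higher than the floor of 3 counts per library in the Sham mice, or 14.1-fold without Vehicle mouse 1, and the lowest Vehicle mouse was 5.6-fold above it. Serpina3g was at 0.0518 to 0.109 CPM in the Sham mice and 0.538 to 5.19 CPM in the Vehicle mice. Serpina3n had between 4891 and 17049 counts in the Vehicle mice, far above either copy. In LJP against Vehicle mice the log2 fold changes were -2.65 for Serpina3g and -2.17 for Serpina3m (edgeR adjusted p of 0.0742 and 0.106, from the same filter).

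Ptx3 overlaps Veph1 on the other strand, with 14, 13 and 7 Veph1 counts summed over the Sham, Vehicle and LJP groups. Saa3 overlaps the antisense Gm31882, with 2, 1 and 0 counts. The strand setting of the counting is not given in the sources used here, so reads of such pairs cannot be told apart.

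Receptors and binding partners of the 6 proteins were a list of 21, of which 16 were tested. In the Vehicle mice 11 of them rose, against 22.7% of all tested genes, and the median log2 fold change was 1.94. Tlr2, a receptor that serum amyloid A can engage, rose by a log2 fold change of 4.16. The subunits of C1q, which Ptx3 binds, rose together: C1qa by 2.76, C1qc by 2.79 and C1qb by 2.66 (edgeR adjusted p-values of 1.54e-05 for Tlr2 and of 9.06e-05 to 0.000122 for C1q).

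In LJP against Vehicle mice, 0 of the 16 passed, 8 had an unadjusted p below 0.05, 7 of them with lower means in the LJP group, DESeq2 called 5, and the median was -0.53, beside 17.4% and 9.36% of all tested genes that were lower by these criteria. Hmox1, which breaks down the heme that the hemoglobin scavengers deliver, had the smallest p (-3.23), followed by Cd14 (-1.73), Cd163, the receptor for haptoglobin bound to hemoglobin (-1.62), and Fgf2, which Ptx3 binds (-1.11). Their edgeR adjusted p-values were 0.0678, 0.0678, 0.0690 and 0.0720.

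Inducers of the acute phase response, a list of 26 cytokines, receptors and transcription factors, had 23 tested members. In the Vehicle group 20 rose and 1, the glucocorticoid receptor Nr3c1, fell by 0.50 on the log2 scale, while 22.7% of all tested genes rose and 17.3% fell. The median was 1.84. Of the 23, 3 passed the filter only with the Vehicle mice (Osm, Il11 and Il1a). Bcl3 rose by a log2 fold change of 5.60, Osmr, the oncostatin M receptor, by 3.60, Cebpd by 4.15 and the tumor necrosis factor receptor Tnfrsf1a by 3.30 (edgeR adjusted p-values of 5.89e-05, 0.000135, 0.000181 and 0.000200). Cebpd encodes a factor of the family whose letters were found before the RefSeq starts of Lcn2, where they are exonic in other transcripts, of Saa3, inside the span of the gene in the count table, and of Ptx3.

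In LJP against Vehicle mice, 0 of the 23 passed, 18 had an unadjusted p below 0.05, all with lower means in the LJP group, DESeq2 called 17, and the median was -1.01, again beside 17.4% and 9.36% of all tested genes. Socs3 was at 20.5 CPM in the LJP mice against 126 CPM in the Vehicle mice (log2 fold change -2.62). Il11, an interleukin-6 family cytokine, was at -4.41, Tnfrsf1a at -1.64 and Rela, an NF-kappa B subunit, at -0.92. All 4 had an edgeR adjusted p of 0.0678. Il11 passed the filter only with the Vehicle mice, so a lower LJP level of it was favoured in advance. In Vehicle mice 1 to 4 Il11 was at 37.6, 13.6, 1.18 and 2.37 CPM.

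**Figure D4:**
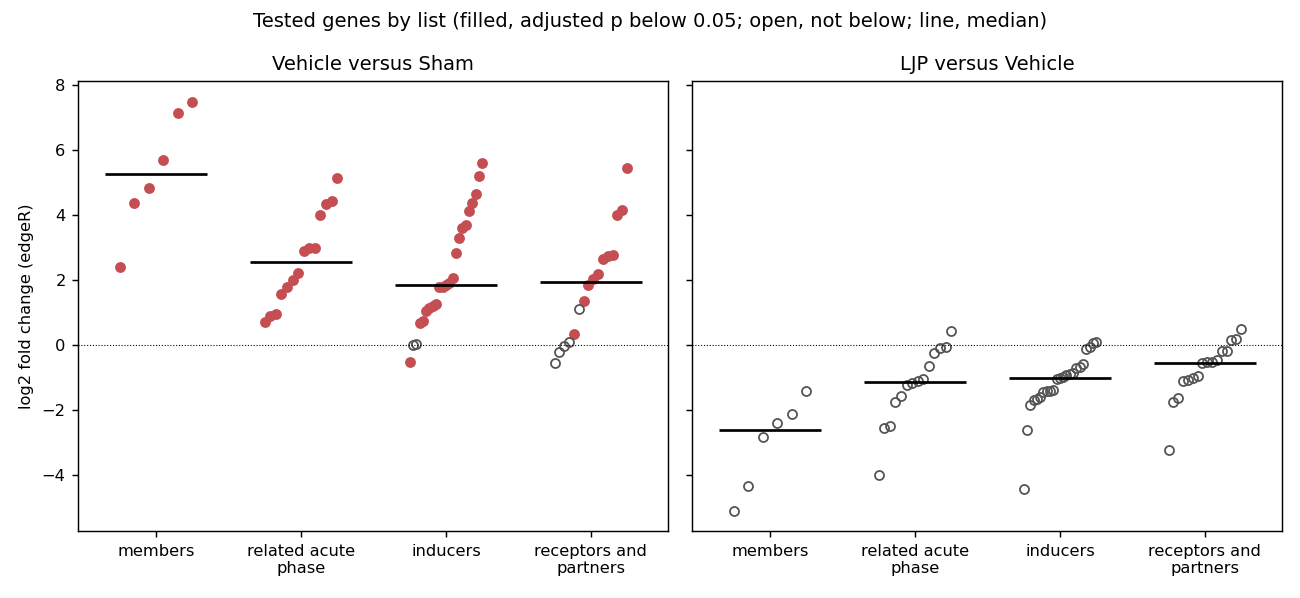
Log2 fold changes (edgeR) of the tested genes of 4 lists in Vehicle versus Sham and LJP versus Vehicle; each point is a gene, filled where the adjusted p was below 0.05 and open where it was not, and lines are medians. The medians of the 6 acute phase genes were 5.27 and -2.60, further from 0 than those of the related genes (2.56 and -1.14), the inducers (1.84 and -1.01) and the partners (1.94 and -0.53). The genes and lists were chosen with earlier results of these data known, so the order of the medians is only a description.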

How the data were processed

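RNA of 12 mouse hemispheres was sequenced as poly(A) libraries with paired-end reads. The authors deposited raw read counts per gene, without normalization, and the submitters' processing notes name featureCounts and DESeq2 and the builds GRCm39 and mm10. Gene positions in the table equal those of GRCm38.p6 for 99.99% of genes. The aligner, the strand setting and the handling of shared reads are not given in the sources used here. Groups and replicate numbers came from the sample labels. Lung markers set the LJP libraries apart, and whether the libraries of the 3 groups were handled alike was not tested. That replicates are separate mice is the study's own statement.

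The test was edgeR's quasi-likelihood test (edgeR 4.0.16, R 4.3.3) with 1 term per group over all 12 mice, after TMM normalization and filterByExpr, which kept 17558 of the 30210 genes with a count. Benjamini-Hochberg adjustment ran over all tested genes, with a threshold of 0.05. Total counts ranged from 17960353 to 22216315 per mouse, and counting intervals are 95% intervals that cover counting error only. Exact permutation tests enumerated all splits of 4 against 4 mice on log2 of CPM plus 0.5 and were two-sided. Levels per kb used the length column of the table, and sequences and motifs came from RefSeq tables of GRCm38.p6. The test was checked on simulated counts. No pair of libraries within a group agreed within sampling noise (lowest chi-square per df 2.56), so none was counted as a duplicate.

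The members and gene lists were chosen with earlier results of these data known. In each list the text names up to 4 genes with the smallest p-values in Vehicle versus Sham and in LJP versus Vehicle, genes at the floor that a sentence turns on, and the 3 nearest profiles of each member. Other genes named, Nr3c1, the lowest-count genes and single cell type markers, were chosen after their values were seen. Alternatives were DESeq2 1.42.0 with its own filter, RLE or library size scaling, no filter, a fit of only the compared groups, the replicate number as a block, the thresholds of the study's methods (absolute log2 fold change over 0.58, unadjusted p below 0.01), and leaving out each mouse.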

Additional observations from a re-analysis of the deposited data

Results flagged for a closer look

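Of 54 groups of 4 mice examined (the 6 acute phase genes and 12 summed marker lists in 3 groups each), 5 held a mouse whose gap to its nearest neighbour, divided by the range of the group, was above Dixon's 95% critical value, where chance gives about 2.70. Serpina3n was highest in LJP mouse 3, at 305 CPM (gap ratio 0.855). In that mouse the summed choroid plexus markers were at 364 CPM against 11.4 to 14.7 CPM in the other LJP mice (0.990). Vehicle mouse 2 stood apart in summed fibroblast markers, at 1011 CPM (0.913), and macrophage markers, at 107 CPM (0.918), and it was also the highest Vehicle mouse in Lbp, with a value of 67.6 CPM. Sham mouse 1 was lowest in oligodendrocyte markers, at 3245 CPM (0.851).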

How the results depend on the processing

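All 6 genes were called higher in Vehicle than in Sham mice under every alternative run, and the ratios to Serpina3n gave no call at a pseudocount of 0.5, of 2 or without one. In LJP versus Vehicle mice, the called genes of the 6 numbered 6 under DESeq2, without the filter on low counts and at the study's thresholds, and 0 to 6 over the fits without 1 mouse, while those of the related list numbered 8, 6 and 8 (0 to 8), of the receptors and partners 6, 2 and 5 (0 to 6) and of the inducers 18, 11 and 16 (0 to 19), with DESeq2 counts that include genes edgeR did not test. Serpina3 copies called numbered 3 under DESeq2 and 1 at the study's thresholds (0 to 2), and in Vehicle versus Sham mice 6 under DESeq2 or no filter, since more copies were then tested. In LJP versus Sham mice, without 1 mouse, the count of the 6 was 1 to 3 and of the related list 3 to 9, the latter 3 without Sham mouse 1, 2 or 3 or LJP mouse 3 and 8 or 9 without Vehicle mouse 3 or 2. The related list also gave 9 under DESeq2 and at the study's thresholds and 11 with only the compared groups. The sign of the difference near 0 turned for Lbp (-0.40 to 0.33 without 1 mouse) and Hp (-0.20 to 0.38, and -0.058 with the replicate block). Same-numbered mice had correlations of deviations from -0.32 to 0.11, so the numbers were not taken as pairs. With the replicate block, the related list gave 3 in LJP versus Sham mice and Ptx3 there lost its call (edgeR adjusted p = 0.0783), and no other call of the 6 genes changed. Causes of these changes were not tested beyond the number of genes or mice in each fit. Of all tested genes in LJP versus Vehicle mice, 9.36% were lower under DESeq2 and 5.89% at the study's thresholds. Without Vehicle mouse 3 or 4 the shares were 13.1% and 8.38%. For the other alternatives named here no such share was worked out, so their counts are not a result about these genes. Depth limits the low groups: Saa3 had 7 counts over the Sham mice, and Ptx3, Lcn2 and Hp had 36, 39 and 40 there, and Saa3 and Hp had 41 and 45 over the LJP mice.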
